A study of Mus musculus with 9 samples.

Results

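Proteasome subunit genes were followed by RNA sequencing in endothelial cells of mouse lung, with 5 libraries of Tie1-CR mice and 4 libraries of Tie1-WT mice. Tie1 is a receptor of endothelial cells that acts on angiopoietin signalling together with Tek. In Tie1-CR mice it resists proteolytic cleavage, and Tie1-WT mice carry the wild type receptor. All library names of both genotypes carry PBS, and the age, sex and strain of the mice, the way the cells were isolated and whether each library is 1 mouse are not given in the labels. Members were all genes of the table whose symbols begin with Psma, Psmb, Psmc, Psmd, Psme, Psmf or Psmg, without Psmb8 and Psmb9, which gave 45 of 9277 genes.

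The proteasome is the protease that degrades proteins tagged with ubiquitin. Its core particle is a barrel of alpha rings (Psma genes) that gate the entrance and beta rings (Psmb genes) that hold the proteolytic sites. A regulatory particle of ATPases (Psmc genes) and non-ATPase subunits (most Psmd genes) binds the ubiquitin chain, removes it and threads the substrate into the core. Interferon induces alternative catalytic subunits, the immunoproteasome, and the activators Psme1 and Psme2, which favour peptides for antigen presentation. In endothelium the proteasome is known for degrading the inhibitors of NF-kappaB during inflammatory activation.

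The 45 genes comprised 7 alpha subunits, 7 constitutive beta subunits, the immunoproteasome subunit Psmb10, 6 ATPases, 11 non-ATPase subunits of the regulatory particle, 3 chaperones of the regulatory particle, 4 chaperones of the core, 5 activator genes and the inhibitor Psmf1. Psma8, Psmb11 and Psmc3ip also fit the naming rule and are not analysed here. Levels are given in CPM, reads scaled to the depth of their library and not corrected for gene length. Mean levels over all 9 libraries ran from 10.2 to 207 CPM. The least counted member was read 335 times in a library and the most counted 11401 times, which corresponds to a counting error of at most 5.46% if each read is independent.

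Only a short stretch upstream of these genes was searched, and other regulatory sequences were not examined. Nfe2l1, the transcription factor known to raise proteasome gene expression when proteasome activity is short, binds antioxidant response elements. The core letters TGACNNNGC were searched on both strands in the 250 bases upstream of the RefSeq start sites (GRCm38.p6), together with the CCAAT box that NF-Y binds. RefSeq promoters matched 38 of the 45 genes. The element was found in 5 of the 38 (13.2%), against 11.5% of 27025 genes, and CCAAT in 12 of the 38 (31.6%), against 37.5%. Both shares lay near those of the 27025 genes with RefSeq promoters, which include genes not tested here. The upstream sequences of Psmd14 (chr2:61711444-61711693, plus strand), the member that passed the test between the genotypes, and of the catalytic subunits Psmb5 (chr14:54617996-54618245, minus strand) and Psmb6 (chr11:70525107-70525356, plus strand), which hold the element, are shown with motif letters in capitals. The searches did not overlap in these sequences.
Psmd14: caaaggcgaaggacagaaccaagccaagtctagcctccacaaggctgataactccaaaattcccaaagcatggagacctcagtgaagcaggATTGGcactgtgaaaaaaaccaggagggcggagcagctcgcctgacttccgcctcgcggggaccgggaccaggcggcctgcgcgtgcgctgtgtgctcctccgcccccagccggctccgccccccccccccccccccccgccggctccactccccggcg
Psmb5: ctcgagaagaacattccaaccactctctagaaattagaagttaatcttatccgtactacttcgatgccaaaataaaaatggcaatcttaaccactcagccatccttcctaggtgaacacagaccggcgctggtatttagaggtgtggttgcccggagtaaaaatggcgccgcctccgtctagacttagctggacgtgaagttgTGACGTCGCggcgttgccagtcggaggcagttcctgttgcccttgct
Psmb6: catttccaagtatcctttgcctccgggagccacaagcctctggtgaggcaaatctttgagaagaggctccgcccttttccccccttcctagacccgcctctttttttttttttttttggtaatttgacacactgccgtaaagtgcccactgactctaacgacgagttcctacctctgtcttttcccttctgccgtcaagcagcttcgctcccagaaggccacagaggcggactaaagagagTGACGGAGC
The capitals in Psmd14 mark a CCAAT box on the opposite strand, 159 bases before the start, and no letters of the antioxidant response element were found in this window. In Psmb5 the element began 47 bases before the start, and in Psmb6 9 bases before it.

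The proteasome genes lay slightly lower in Tie1-CR as a list, and only Psmd14 passed the test. Differences are Tie1-CR minus Tie1-WT on the scale of log2(CPM + 1), tested with limma over all 9277 genes, with a Benjamini-Hochberg adjusted p below 0.05 as the threshold. Of the 45 members, 1 fell (2.22%) and 0 rose, against 2.77% of all genes that fell and 1.28% that rose (4.05% in all). At an unadjusted limma p below 0.05 the counts were 6 lower (13.3%, against 14% of all genes) and 0 higher (8.27% of all genes). The share of members called was thus close to or below that of all genes. Log2 differences ran from -0.28 to 0.12 with a median of -0.07, against a median of -0.03 over all genes. They were below 0 in 41 of the 45 members (91.1%), against 58.5% of all genes. With a correction for GC content and transcript length 0 members passed, 28 lay below 0, the median was -0.02 log2 and 1 member had an unadjusted limma p below 0.05. That last count was 3 with TMM scaling. The count that passed was also 0 without Tie1-CR replicate 3 or 4 or any of the Tie1-WT libraries. Without Tie1-CR replicate 1 it was 2, with Psma2 beside Psmd14, 6 members did not overlap between genotypes and the median was -0.10 log2. In bulk samples such as these, fewer cells of a type and less RNA per cell cannot be told apart.

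The intervals limit how large a difference could be. The 95% intervals of the limma differences lay within 0.5 log2 of 0 for all 45 members and within 0.25 log2 for 31. The widest reach was to -0.42 for Psmg4 and to 0.32 for Psmg3, both chaperones of core assembly at low levels. Standard errors had a median of 0.06 log2 over the members and 0.07 over all genes.

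**Figure D1:**
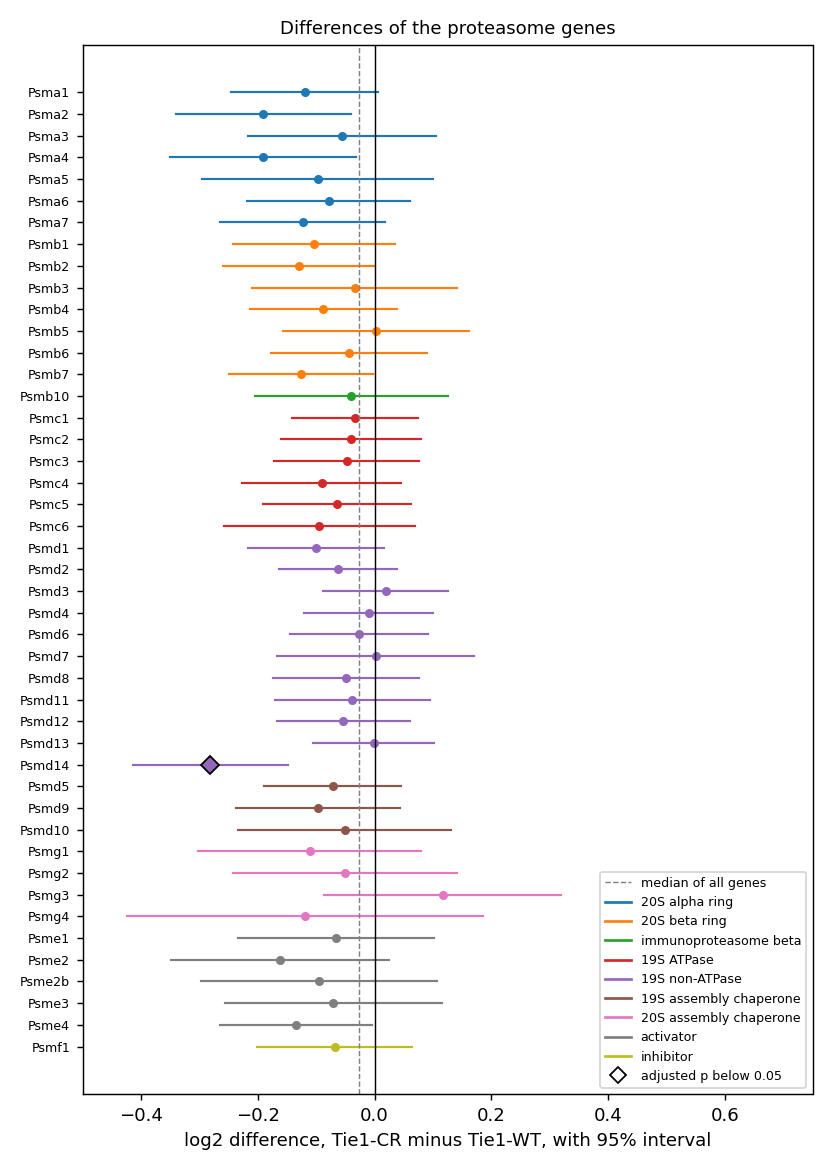
Log2 differences (Tie1-CR minus Tie1-WT, limma) of the 45 proteasome genes with 95% intervals, coloured by role, and the median of all genes (-0.03) as a dashed line. Psmd14 at -0.28 is the only member with an adjusted p below 0.05, and 41 of the 45 points lie below 0.

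Psmd14 had genotypes that did not overlap. It encodes the metalloprotease of the regulatory particle that cuts ubiquitin chains from substrates, and lies on chromosome 2 (61711694 to 61800376, GRCm38, plus strand). Its level was 39.6, 32.1, 35.3, 33.8 and 36.1 CPM in Tie1-CR libraries 1 to 5, against 41.7, 42.0, 43.7 and 45.0 CPM in Tie1-WT libraries 1 to 4. Every Tie1-CR library lay below every Tie1-WT library, as was the case for this 1 member of 45 (2.22%) and for 6.74% of all genes; no member lay without overlap above Tie1-WT, as 3.74% of all genes did (10.5% in either direction). The means were 35.4 ± 2.79 CPM (SD, n = 5) in Tie1-CR and 43.1 ± 1.53 CPM (SD, n = 4) in Tie1-WT, a log2 difference of -0.28 (SE 0.06, limma adjusted p = 0.0291), or 0.823-fold. The gene was read 1228 to 2216 times per library, a counting error of at most 2.85% if each read is independent, and more where amplified copies of a molecule were read.

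The call of Psmd14 was close to the threshold. It ended without Tie1-CR replicate 3 or 4 or without any of the 4 Tie1-WT libraries (limma adjusted p from 0.0524 to 0.0834), while the difference stayed between -0.30 and -0.26 log2. After a correction for GC content and transcript length it was -0.16 log2 (limma adjusted p = 0.0664).

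**Figure D2:**
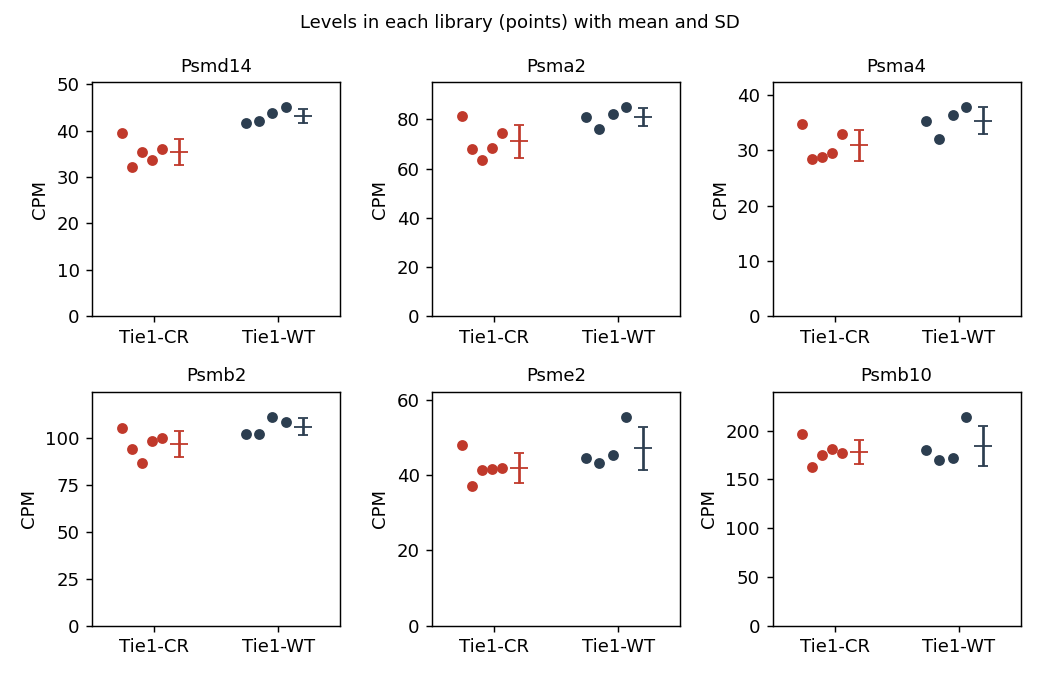
CPM in each library (points, replicates in order) with mean and SD beside them, for Psmd14 and for 5 members that did not pass. In Psmd14 the Tie1-CR libraries (32.1 to 39.6 CPM) lie below the Tie1-WT libraries (41.7 to 45.0 CPM), and in the other 5 genes the genotypes overlap.

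The alpha ring had the lowest median of the larger groups, at -0.12 log2, with all 7 members below 0 and 0 past the threshold. Psma2 had the smallest p of the ring. It measured 81.3, 68.2, 63.6, 68.2 and 74.3 CPM in Tie1-CR libraries 1 to 5 and 81.1, 76.2, 82.1 and 84.9 CPM in Tie1-WT libraries 1 to 4. Only Tie1-CR replicate 1 reached the range of Tie1-WT. The log2 difference was -0.19 (SE 0.07, limma adjusted p = 0.128). Without Tie1-CR replicate 1 it was -0.24 (limma adjusted p = 0.0487), and with GC content and length corrected for -0.08 (limma adjusted p = 0.534). Psma4, with a difference of the same size, measured 34.8, 28.4, 28.8, 29.6 and 33.0 CPM in Tie1-CR and 35.3, 32.1, 36.5 and 37.8 CPM in Tie1-WT (limma adjusted p = 0.147). Here Tie1-CR replicates 1 and 5 lay within the range of Tie1-WT. The most highly counted alpha gene, Psma7, measured 151, 133, 129, 143 and 142 CPM in Tie1-CR and 144, 140, 162 and 163 CPM in Tie1-WT (log2 difference -0.12, limma adjusted p = 0.282). Its Tie1-CR libraries spread across the lower part of the Tie1-WT range and below it. With the same correction Psma4 was at -0.07 and Psma7 at -0.06 log2. The other 4 members, Psma1, Psma3, Psma5 and Psma6, differed by -0.12 to -0.06 log2.

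Among the 7 constitutive beta subunits, 6 were below 0, the median was -0.09 log2 and 0 passed. Psmb2, a structural subunit, measured 105, 94.1, 86.6, 98.0 and 99.7 CPM in Tie1-CR and 102, 102, 111 and 108 CPM in Tie1-WT (log2 difference -0.13, limma adjusted p = 0.221). Of the Tie1-CR libraries, replicate 1 lay within the Tie1-WT range and the other 4 below it. Psmb7 carries the trypsin-like catalytic site. It measured 29.3, 25.1, 25.4, 26.4 and 28.0 CPM in Tie1-CR and 29.1, 29.2, 29.9 and 29.1 CPM in Tie1-WT, again with Tie1-CR replicate 1 among the Tie1-WT values (log2 difference -0.13, limma adjusted p = 0.217). Psmb6, with the caspase-like site, measured 123, 111, 101, 110 and 112 CPM in Tie1-CR and 108, 110, 122 and 118 CPM in Tie1-WT, with full overlap (log2 difference -0.04, limma adjusted p = 0.709). Psmb5, with the chymotrypsin-like site, measured 21.2 ± 2.08 CPM (SD, n = 5) in Tie1-CR and 21.1 ± 0.787 CPM (SD, n = 4) in Tie1-WT, and its 95% interval ran from -0.16 to 0.16 log2. Psmb5 and Psmb6, whose upstream sequences hold the antioxidant response element letters, thus had differences near 0. The other 3 genes with the element differed by -0.09 (Psmc6), -0.05 (Psmd12) and -0.10 log2 (Psmd9).

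Levels of the core subunits differed between genes. Core genes with near-identical copies elsewhere in the genome were among the lowest of the 14. The core holds its subunits in equal numbers, so levels were set on a scale of CPM per kilobase of coding sequence. Untranslated parts are left out of the length, but any reads counted in them stay in the CPM. Genes with long untranslated parts can thus read too high on this scale. Of the 45 coding sequences, 11 matched a transcript of another gene, most often a pseudogene, at 95% identity or more over at least 50% of their length (blastn against GENCODE transcripts). Among the 14 core subunits these were Psma3, Psma4, Psma5, Psmb3 and Psmb5. These 5 genes measured 19.5 to 45.4 CPM per coding kilobase in Tie1-CR and 21.0 to 46.4 in Tie1-WT. The 9 core genes without such a match measured 32.3 to 188 in Tie1-CR (median 109) and 35.3 to 205 in Tie1-WT (median 119). Psmb7 was the only one of these 9 below the highest of the 5. How reads that match several places were counted is not given in the sources used here, so the levels of the 11 genes are uncertain, and whether the copies account for the low values was not tested. The median log2 difference between genotypes was -0.06 over the 11 genes with a match and -0.07 over the 34 without one.

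**Figure D3:**
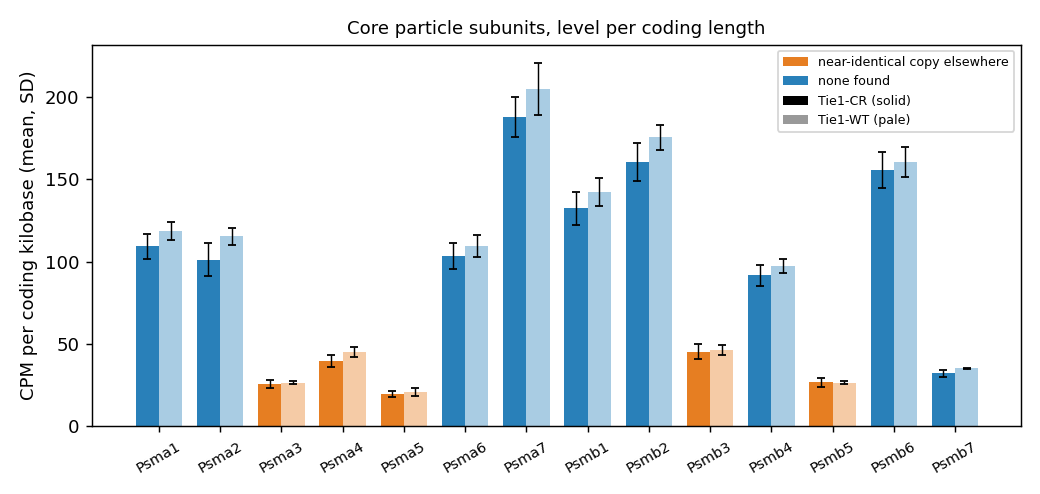
Mean level of the 14 core subunits in CPM per coding kilobase with SD over libraries, Tie1-CR in solid and Tie1-WT in pale bars. The 5 genes with a near-identical copy elsewhere (orange) reach at most 46.4, while 8 of the 9 others (blue) lie above that value, Psmb7 being the exception.

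Psmb10, the immunoproteasome counterpart of Psmb7, measured 197, 163, 175, 181 and 177 CPM in Tie1-CR and 180, 170, 172 and 214 CPM in Tie1-WT (log2 difference -0.04, SE 0.08, limma adjusted p = 0.794). The genotypes overlapped throughout, with the highest value in Tie1-WT replicate 4, without which the difference was 0.04 log2. Per coding kilobase its level was 218 in Tie1-CR and 225 in Tie1-WT, above those of Psmb7 at 32.3 and 35.3. The remaining immunoproteasome subunits, Psmb8 and Psmb9, which the naming rule left out, measured 108 ± 11.2 and 129 ± 12.3 CPM in Tie1-CR (SD, n = 5) and 124 ± 16.9 and 156 ± 24.6 CPM in Tie1-WT (SD, n = 4), with log2 differences of -0.20 and -0.27 (limma adjusted p = 0.249 and 0.149). Without Tie1-WT replicate 4 these were -0.11 and -0.17.

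The activators Psme1 and Psme2, which form the cap of the interferon-inducible proteasome, shared the high value of Tie1-WT replicate 4. Psme2 measured 48.0, 37.0, 41.2, 41.4 and 41.9 CPM in Tie1-CR and 44.5, 43.1, 45.3 and 55.4 CPM in Tie1-WT (log2 difference -0.16, limma adjusted p = 0.287). Psme1 measured 120, 93.1, 106, 103 and 106 CPM in Tie1-CR and 107, 101, 109 and 125 CPM in Tie1-WT (log2 difference -0.07, limma adjusted p = 0.637). Without Tie1-WT replicate 4 the differences were -0.08 log2 for Psme2 and -0.01 for Psme1. In both, Tie1-CR replicate 1 was the highest of its genotype and replicate 2 the lowest. The coding sequence of Psme2 was 99.3% identical to that of its copy Psme2b, so the split of reads between this pair is uncertain. Psme4, a large activator found mainly in the nucleus, measured 47.9, 45.2, 50.5, 41.0 and 46.1 CPM in Tie1-CR and 50.4, 51.0, 52.4 and 48.8 CPM in Tie1-WT (log2 difference -0.13, limma adjusted p = 0.211). All 5 activator genes were below 0 and 0 passed. The inhibitor Psmf1 measured 44.5 ± 3.45 CPM (SD, n = 5) in Tie1-CR and 46.6 ± 1.83 CPM (SD, n = 4) in Tie1-WT (limma adjusted p = 0.535).

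In the regulatory particle the ATPases, which unfold the substrate, were all below 0, with a median of -0.06 log2 over 6 genes and 0 past the threshold. The largest difference, in Psmc6, was -0.09 log2, from 55.7, 44.0, 49.0, 44.0 and 53.8 CPM in Tie1-CR and 52.2, 50.2, 55.0 and 52.5 CPM in Tie1-WT (limma adjusted p = 0.476). Psmc4 measured 122, 111, 99.1, 119 and 109 CPM in Tie1-CR and 115, 115, 125 and 122 CPM in Tie1-WT (log2 difference -0.09, limma adjusted p = 0.414). Both genes had Tie1-CR libraries above and below most Tie1-WT libraries. Psmc3, the most highly counted ATPase gene, averaged 143 ± 8.06 CPM (SD, n = 5) in Tie1-CR and 147 ± 8.67 CPM (SD, n = 4) in Tie1-WT (limma adjusted p = 0.645).

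Besides Psmd14, the largest difference among the non-ATPase subunits was that of Psmd1, at -0.10 log2 (95% interval from -0.22 to 0.02, limma adjusted p = 0.287). The 11 genes had a median of -0.04 log2, with 9 below 0. Psmd3, a scaffold subunit of the lid and the most highly counted member of all 45, measured 210, 206, 195, 220 and 213 CPM in Tie1-CR and 201, 199, 216 and 208 CPM in Tie1-WT (log2 difference 0.02, limma adjusted p = 0.852). Its 95% interval ran from -0.09 to 0.13 log2. Psmd7, which pairs with Psmd14 in the lid, measured 105 ± 9.99 CPM (SD, n = 5) in Tie1-CR and 105 ± 8.85 CPM (SD, n = 4) in Tie1-WT (log2 difference 0.00, 95% interval from -0.17 to 0.17). The ubiquitin receptor Psmd4 measured 121 ± 6.21 CPM (SD, n = 5) in Tie1-CR and 122 ± 4.81 CPM (SD, n = 4) in Tie1-WT. The difference of Psmd14 from these other genes was not tested.

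Among the assembly factors, 0 passed. The 3 chaperones of the regulatory particle differed by -0.10 (Psmd9), -0.07 (Psmd5) and -0.05 log2 (Psmd10). Psmd9 measured 40.3, 40.5, 34.0, 39.8 and 39.6 CPM in Tie1-CR and 39.5, 39.9, 45.2 and 41.6 CPM in Tie1-WT (limma adjusted p = 0.396), and 4 of the Tie1-CR libraries lay close together above replicate 3. Psmd5 measured 73.9 ± 4.82 CPM (SD, n = 5) in Tie1-CR and 77.6 ± 1.62 CPM (SD, n = 4) in Tie1-WT. Among the 4 core chaperones, Psmg1 measured 10.8, 9.00, 9.29, 9.83 and 11.8 CPM in Tie1-CR and 11.5, 11.0, 10.8 and 10.7 CPM in Tie1-WT (log2 difference -0.11, limma adjusted p = 0.475). Psmg4 measured 12.4, 9.95, 8.63, 8.84 and 8.76 CPM in Tie1-CR and 9.60, 8.35, 13.4 and 11.5 CPM in Tie1-WT (log2 difference -0.12, limma adjusted p = 0.644), and its libraries spread widely in both genotypes. Psmg2 averaged 15.9 ± 1.33 CPM (SD, n = 5) in Tie1-CR and 16.6 ± 1.96 CPM (SD, n = 4) in Tie1-WT. Psmg3 was the member with the highest difference, at 0.12 log2 (limma adjusted p = 0.482).

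The members moved together from library to library within each genotype. Tie1-CR replicate 1 was the highest Tie1-CR library in 33 of the 45 members, against 26.7% of all genes, and replicates 2 and 3 held the lowest value in 41, against 44.2% of all genes. In Tie1-WT, replicates 3 and 4 held the highest value in 43 members, against 63.1% of all genes. Expressed as the median deviation of the members from the midpoint of the genotype means, Tie1-CR libraries 1 to 5 lay at 0.08, -0.11, -0.10, -0.03 and 0.00 log2 and Tie1-WT libraries 1 to 4 at -0.01, -0.03, 0.10 and 0.08. The range from the lowest to the highest library was thus 0.19 log2 in Tie1-CR and 0.13 in Tie1-WT. Both ranges were larger than the median difference between genotypes, but a range of single libraries is not the error of a difference of means. The same medians over all genes lay between -0.03 and 0.04 log2. Because the members share these shifts, the 41 differences below 0 are not 41 separate observations.

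**Figure D4:**
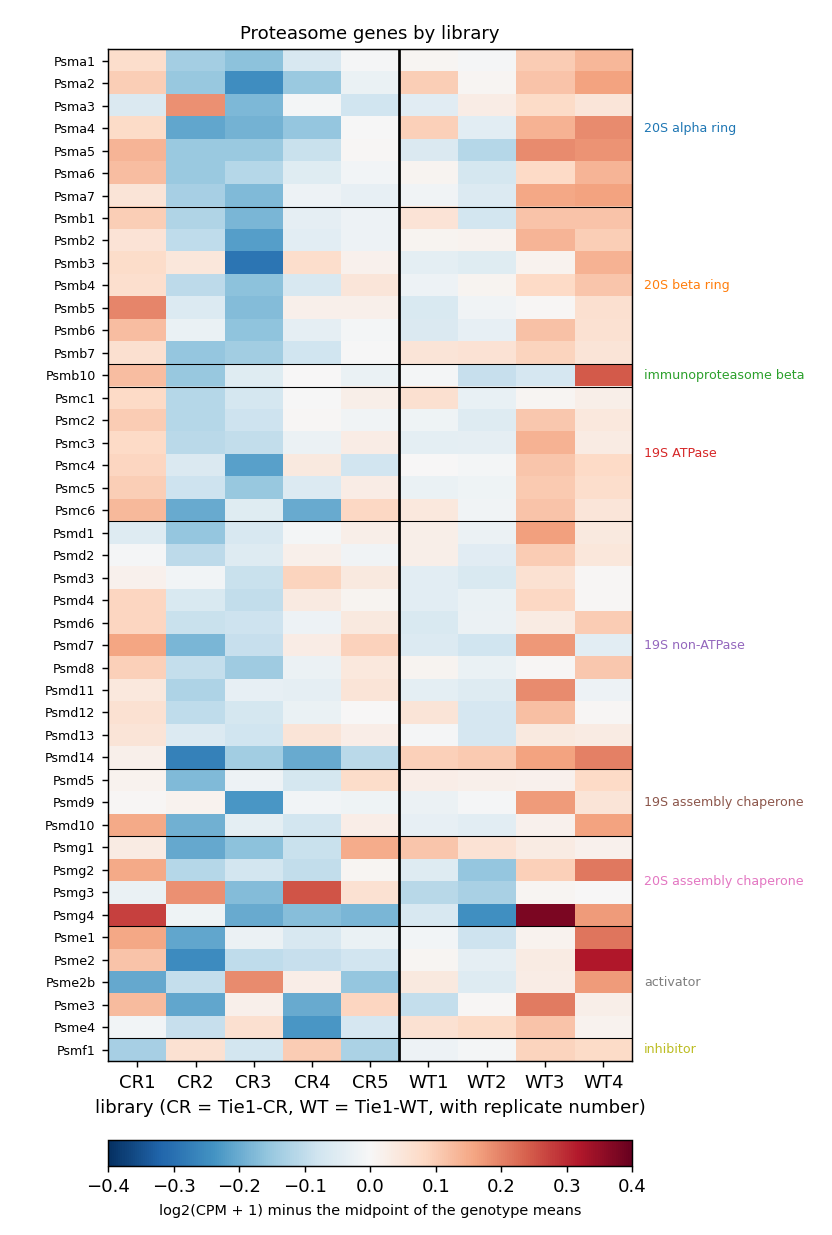
Log2(CPM + 1) of each proteasome gene (rows, by role) in each library (columns, Tie1-CR left of the line, Tie1-WT right), as the deviation from the midpoint of the genotype means. Tie1-CR replicate 1 is above the midpoint in most rows (38 of 45), replicates 2 and 3 are below it in most rows, and Tie1-WT replicates 3 and 4 are above it in 44 and 43 rows.

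The summed level of the 45 genes overlapped between genotypes. It was 3517, 3103, 3106, 3294 and 3355 CPM in Tie1-CR and 3338, 3266, 3571 and 3555 CPM in Tie1-WT, on average 3275 ± 176 CPM in Tie1-CR (SD, n = 5) and 3432 ± 154 CPM in Tie1-WT (SD, n = 4), a ratio of 0.954. These sums are 0.310% to 0.357% of the counted reads of a library.

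The members' median difference was smaller in size once GC content and length were corrected for, and also with scaling. In each case the median of all genes rose too. Median transcript length was 1440 bases for the members and 3354 for all genes, with a GC content of 49.7% and 50.2%. After splines of GC content and length were removed from each library, the members' median difference was -0.02 log2, against 0.01 for all genes, and 17 of the 45 (37.8%) were above 0, against 54.1% of all genes. As deposited, 4 of the 45 (8.89%) were above 0, against 41.5% of all genes. The members' median minus that of all genes was -0.03 log2 after the correction and -0.04 as deposited. With TMM scaling the median was -0.04 log2, against 0.00 for all genes, and with quantile normalization -0.05 against 0.00, so that the gap to all genes was -0.04 and -0.05 log2. Over all genes 68.4% of the 376 calls were lower in Tie1-CR, but 51.1% with TMM scaling and 50.8% with quantile normalization. Leaving out replicate 4 of Tie1-CR gave 183 calls, and leaving out replicate 1, 2 or 3 of Tie1-WT gave 60, 135 and 154 in that order.

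**Figure D5:**
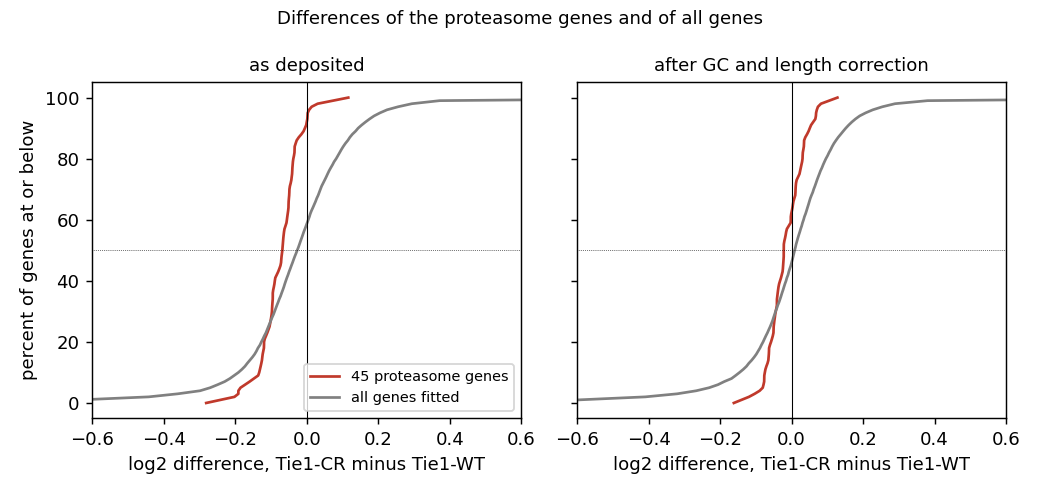
Cumulative distribution of the log2 differences (Tie1-CR minus Tie1-WT) of the 45 proteasome genes and of all genes, as deposited (left) and after the GC and length correction (right). The members' median moves to -0.02 after the correction, from -0.07 as deposited, while all genes lie at 0.01 and -0.03.

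Among other genes of the pathway, Ubb, Zfand5 and Zfand2a fell in the list of ubiquitin supply and shuttles. Of 15 measured genes listed under ubiquitin, its activation and the delivery of substrates, 3 fell (20.0%, against 2.77% of all genes). The count that rose was 0 (1.28% of all genes), with a median of -0.02 log2 and 5 above 0. This list and the other lists below were chosen with earlier results of these data known, so their shares only describe the listed genes. Ubb, which encodes ubiquitin as repeats, so that reads shared with other ubiquitin genes make its level uncertain, fell to 248 ± 18.1 CPM in Tie1-CR (SD, n = 5), against 295 ± 4.55 CPM in Tie1-WT (SD, n = 4; log2 difference -0.25, limma adjusted p = 0.0348). Zfand5, a zinc finger protein known to activate the proteasome, measured 141, 144, 142, 145 and 144 CPM in Tie1-CR and 184, 173, 186 and 170 CPM in Tie1-WT, without overlap (log2 difference -0.31, limma adjusted p = 0.00485). Zfand2a, an arsenite-inducible protein that binds the proteasome, measured 45.2 ± 1.97 CPM (SD, n = 5) in Tie1-CR and 54.3 ± 2.52 CPM (SD, n = 4) in Tie1-WT (limma adjusted p = 0.0206). The call of Ubb ended without any single library other than Tie1-CR replicate 1 (limma adjusted p from 0.0581 to 0.107) and with TMM scaling (0.0528), and that of Zfand2a ended without Tie1-WT replicate 1 or 2 (0.0847 and 0.0647). Zfand5 passed in every alternative run.

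Of 8 measured components and associated factors of the proteasome that do not carry the Psm name, 1 fell (12.5%, against 2.77% of all genes). The count that rose was 0 (1.28% of all genes), with a median of -0.11 log2. Akirin2, known in human cells to mediate the import of proteasomes into the nucleus, measured 56.3, 50.2, 49.4, 49.9 and 54.1 CPM in Tie1-CR and 61.3, 60.4, 60.7 and 58.1 CPM in Tie1-WT (log2 difference -0.21, limma adjusted p = 0.0461). The genotypes did not overlap, but the call ended with TMM scaling (0.0702), with quantile normalization (0.0735), once GC content and length were corrected for (-0.11 log2, 0.166) and without any single library other than Tie1-CR replicate 1 (0.0602 to 0.145). Pomp, the maturation factor of the core, named after its values were seen, measured 82.4 ± 6.31 CPM (SD, n = 5) in Tie1-CR and 95.5 ± 2.01 CPM (SD, n = 4) in Tie1-WT (limma adjusted p = 0.0626).

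Of 10 measured genes around Nfe2l1, 0 passed (median -0.05 log2), with 1 higher (8.27% of all genes were) and 3 of 10 lower (14% of all genes were) at an unadjusted limma p below 0.05. Nfe2l1 itself measured 234 ± 13.6 CPM (SD, n = 5) in Tie1-CR and 250 ± 4.08 CPM (SD, n = 4) in Tie1-WT (limma adjusted p = 0.277). Its small Maf partner Mafk had the smallest p, at 102, 98.1, 112, 93.5 and 130 CPM in Tie1-CR and 162, 191, 167 and 113 CPM in Tie1-WT, where replicate 4 lay within the Tie1-CR range (log2 difference -0.54, limma adjusted p = 0.0531). Mafk passed without Tie1-WT replicate 4 (-0.70 log2, limma adjusted p = 0.0061), without Tie1-CR replicate 5 (0.0417) and among genes with at least 10 CPM in every library (0.0487). Among 9 interferon-inducible partner genes, Psmb8 and Psmb9 included, 0 passed, 4 were lower at an unadjusted limma p below 0.05 (44.4%, against 14% of all genes) and all 9 lay below 0 (58.5% of all genes did; median -0.23 log2). Irf1, an interferon-inducible transcription factor, had the smallest p of the list, at 426 ± 40.4 CPM (SD, n = 5) in Tie1-CR and 501 ± 37.4 CPM (SD, n = 4) in Tie1-WT (log2 difference -0.23, limma adjusted p = 0.0967). Tie1-CR replicate 1, at 494 CPM, lay within the range of Tie1-WT, and without it Irf1 passed (limma adjusted p = 0.0338). The highest value was 552 CPM in Tie1-WT replicate 4.

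Endothelial markers were high in every library, with a sum over 10 of 10 listed genes of 18771 to 19506 CPM in Tie1-CR and 17066 to 18843 CPM in Tie1-WT, and 0 were higher and 1, Erg, lower by limma. Of the 10 differences 8 lay above 0 and 2 below, with a median of 0.07 log2. At an unadjusted limma p below 0.05, 2 were higher, Tie1 (0.19 log2) and Eng (0.20 log2), and 1 was lower, Erg (-0.41 log2). Markers of other cell types were also counted. Airway markers summed to 60.5 to 100.3 CPM in Tie1-CR and 16.3 to 50.3 CPM in Tie1-WT (5 of 7 listed, 3 higher by limma). All 5 differences lay above 0, with a median of 1.102 log2, and 4 had an unadjusted limma p below 0.05. Type 2 pneumocyte markers summed to 491 to 902 CPM in Tie1-CR and 299 to 694 CPM in Tie1-WT (7 of 9, 1 higher). All 7 differences lay above 0, with a median of 1.023 log2, and 6 had an unadjusted limma p below 0.05. Over all genes 1.28% were higher by limma, and 8.27% at an unadjusted limma p below 0.05. The 4 measured type 1 pneumocyte markers all lay below 0 (median -0.36 log2). The only measured leukocyte marker of 12, Cd68, summed to 4.20 to 7.04 CPM in Tie1-CR and 8.89 to 12.01 CPM in Tie1-WT and was lower by limma. Every deposited gene reaches a minimum level in some library, as given under the processing. Cd68 reached that level only in Tie1-WT, so its direction was partly set by this limit. Other markers at low levels are open to the same effect, such as Foxj1 (means 7.81 CPM in Tie1-CR and 3.25 CPM in Tie1-WT). Markers of type 1 pneumocytes (4 of 6), mesenchyme (6 of 10) and platelets and red cells (3 of 8) had 0 genes past the threshold. Their part in the proteasome results was not tested.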

How the data were processed

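The authors deposited 1 table of 9277 genes, under the name TPM. The deposited values are CPM, reads divided by the library total by the authors, as far as the numbers show: in each library 100% are whole multiples of 1 smallest unit (tolerance 0.01 reads), which puts the depth at 38208696 to 54408116 counted reads. Each gene reaches at least 10.0 CPM in some library. Per the submitters' processing notes, STAR 2.7 and the builds GRCm38.p6 and mm10 were used. No source used here gives the counting tool, its use of strand or its annotation. The SMARTer Ultra Low kit, named in the labels' protocols, amplifies cDNA, so counting errors are lower limits.

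Values were used as log2(CPM + 1), and requiring 1 CPM or more in 4 or more libraries removed no gene. This scale understates changes of low genes. The design was written for TPM and its test was kept for CPM. The test was the two-sided moderated test of limma 3.58.1 in R 4.3.3, with a mean-variance trend, and p-values were adjusted over all genes by Benjamini-Hochberg. On simulated data for the 9277 genes, 86 of 100 genes changed by 0.5 log2 and 98 of 100 changed by 1 log2 were called, with 11 false calls among 195. The simulated noise was independent between genes, without the library shifts that the members share. Changes as small as that of Psmd14 (-0.28 log2) were not simulated. Where the labels do not say that libraries come from separate mice, p-values measure the spread between these libraries. The members and lists were chosen with earlier results of these data known, and some genes of the other lists are not reported here and not counted in them. Members named are those past the threshold and, in each role, those with the smallest p, the largest difference and the highest level. Of each other list, the members past the threshold or that with the smallest p are named. Psma1, Psma3, Psma5, Psma6, Psmb3, Psmb5, Psmd1, Psmd4, Psmd7, Psmd10, Psmd12, Psme2b, Psmg3, Nfe2l1, Psmb8, Psmb9, Pomp, Tie1 and Eng fall outside this rule and were chosen after their values were seen. Other settings tried were pseudocounts of 0.5 and 5, no filter or 10 CPM in every library, TMM and quantile scaling, robust empirical Bayes, a replicate block, splines of GC content and length (4 degrees of freedom each) and each library left out. Gene positions, lengths and GC content came from GENCODE vM21 (GRCm38), which matched 9048 of the 9277 symbols and all 45 members. Copies were searched with blastn 2.17.0, and figures were drawn with matplotlib 3.10.9.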

Additional observations from a re-analysis of the deposited data

Results flagged for a closer look

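Among the reported genes, 3 single values stood apart from the other libraries of their genotype, in 62 groups examined, where chance alone flags about 1 group in 20. Psmd9, a chaperone of the regulatory particle, measured 34.0 CPM in Tie1-CR replicate 3, below the other 4 Tie1-CR libraries. Psmb7, the subunit with the trypsin-like site, measured 29.9 CPM in Tie1-WT replicate 3, above 3 libraries that lay between 29.1 and 29.2 CPM. Psmd5 measured 80.0 CPM in Tie1-WT replicate 4, above 3 libraries between 76.7 and 77.1 CPM.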

How the results depend on the processing

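The count of members higher in Tie1-CR was 0 as reported and in all 18 alternatives. The count of members lower, 1 as reported, was 0 with the replicate block, 0 once GC content and length were corrected for, and 0 to 2 with each library left out in turn (2 without Tie1-CR replicate 1, 0 without Tie1-CR replicate 3 or 4 or any Tie1-WT library). The members' median difference ran from -0.10 to -0.05 log2 with each library left out, was -0.02 with the GC and length correction, and otherwise lay between -0.07 and -0.04. The spread between libraries (SD 0.07) is as large as the median itself. Members without overlap numbered 1 to 6 with each library left out (6 on leaving out replicate 1 of Tie1-CR, 2 for its replicate 3 or 5, and 3 for replicate 2 of Tie1-WT). Calls over all genes, 376 as reported, numbered 183 with the replicate block and 60 to 355 with each library left out. The labels number replicates alike in both genotypes and do not say whether the numbers pair samples. Deviations of same-numbered libraries had correlations of -0.14, 0.00, -0.06 and 0.19. They show no strong shared deviation but cannot exclude a pairing. With the replicate block the difference of Psmd14 was -0.29 log2 (limma adjusted p = 0.0927). The block also ended the calls of Ubb (0.105), Zfand2a (0.0763) and Akirin2 (0.103) by limma adjusted p and brought Mafk past the threshold (0.0285). Tie1-CR replicate 5 has no partner and adds nothing to the differences in that fit. Of the results for 30 named genes under the alternatives, 491 kept direction and call, 33 lost the call, 7 gained it and 7 changed sign, all of the last in genes that did not pass. With the correction Psmc6 was at 0.0352, Psmd3 at -0.0220, Psmd5 at 0.0020 and Psmg2 at 0.0463 log2. With each library left out, Psmd3 ran from -0.0008 (without Tie1-CR replicate 4) to 0.0433, Psmb10 from -0.0769 to 0.0352 (without Tie1-WT replicate 4) and Psmg2 from -0.1101 to 0.0117 (without Tie1-WT replicate 4). The causes of these shifts were not tested. The planned edgeR and DESeq2 fits were not run: no count test was applied to the reads that the deposited CPM values imply.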
